A study of Homo sapiens with 10 samples.

Results

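Among the ChIP-seq peaks of eGFP-tagged IRF4 in 501Mel cells, 1102 peaks scored high in one replicate and overlapped no listed peak of the other. They are the peaks of ChIP replicate 2 on chromosomes 1 to 22 and X that carried a score of 450 or more and overlapped no peak of ChIP replicate 1 by even 1 base. They were selected from 12798 replicate 2 peaks on those chromosomes, and from 20399 peaks in both lists with all contigs counted. They are called replicate 2 only peaks here. The 1453 replicate 2 peaks of the same score range that did overlap a replicate 1 peak are called shared peaks and serve as their comparison. Both values that chose the peaks, the score and the overlap, are therefore descriptions and not results.

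501Mel is an established human melanoma cell line. The study used eGFP-tagged IRF4 in these cells for ChIP-seq in biological duplicates, each with an input sample, and it also sequenced RNA of cells given siIRF4 or siCTRL. The inputs and the RNA libraries were not used here. Both ChIP replicates carried the same tagged protein in the same line, with no treatment, genotype or time point in the labels to set them apart. The labels do not say how the tagged protein was expressed, at what level, or which antibody was used.

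IRF4, interferon regulatory factor 4, is a DNA-binding protein known from the development of B and T lymphocytes and from the pigment cell lineage. Its DNA-binding domain recognises GAAA-containing sites, and at many sites in lymphocytes it binds together with a partner such as PU.1 or the BATF-JUN dimer. In melanocytes it is known to act with MITF, the main regulator of the lineage, on tyrosinase, the rate-limiting enzyme of melanin synthesis. A ChIP-seq peak is a stretch of genome where fragments pulled down with the protein are more frequent than a peak caller expects from the background. The peak list of 1 replicate is thus a thresholded list, and a site that lies under the threshold in one replicate is missing from it without being shown to be unbound.

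The 2 lists began at different scores. The lowest score was 100 in replicate 1, which listed 7534 peaks on chromosomes 1 to 22 and X, and 150 in replicate 2. The score is the authors' own value per peak. Neither the labels nor the columns of the files define it, so it is used to rank and class peaks within a list. The deposited lists carry a p tag in their names, 10 for replicate 1 and 15 for replicate 2, and the lowest scores are 10 times these numbers. Such floors would fit a score that is 10 times the negative log10 of p with a stricter threshold in replicate 2, though no source used here states this. On that reading the replicate 1 list had the more lenient nominal threshold. How easily a site reached either threshold in its own library is not known. The lists hold no read counts, so the sequencing depth of the ChIP libraries is unknown, and the part that depth or ChIP efficiency plays in what is missing from replicate 1 was not tested. All intervals are 95% intervals (exact Clopper-Pearson for shares, order statistics for medians) and cover counting error among peaks only. Peaks of 1 library are not replicates of a condition, so no test was made between the groups of peaks.

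A score of 450 or more was high in the replicate 2 list, whose median score was 256.8. Of all 12798 replicate 2 peaks, 63.2% overlapped no replicate 1 peak, and of the 2555 with a score of at least 450 the percentage was 43.1% (41.2 to 45.1). This second percentage is fixed by the rule and the lists, and describes how common such peaks were. The percentage fell with each step of the score. It was 76.7% (75.3 to 78.0) among 3804 peaks with a score from 150 to under 200, and 49.95% (46.9 to 53.0) among 1089 peaks from 450 to under 600. It was 44.8% (41.5 to 48.2) among 861 peaks from 600 to under 900 and 31.0% (26.8 to 35.3) among 475 peaks from 900 to under 1500. Of the 130 peaks with a score of 1500 or more, 25 were replicate 2 only, which is 19.2% (12.9 to 27.1). No replicate 2 only peak was among the 10 best-scoring peaks of the list, the highest ranked 14, and 18 were among the best 100.

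**Figure D1:**
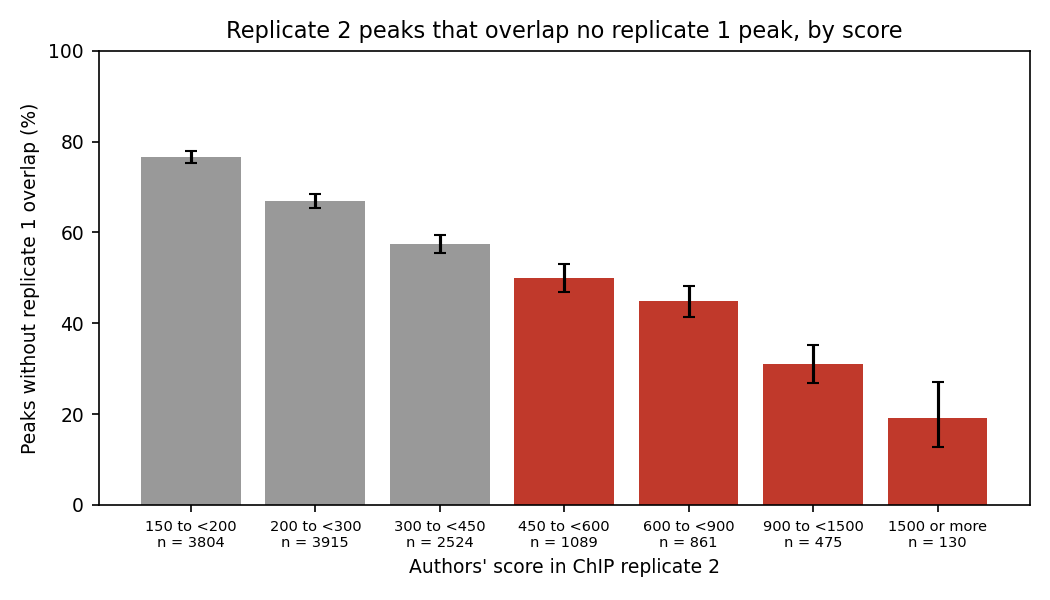
Percentage of replicate 2 peaks without replicate 1 overlap (vertical axis) in 7 classes of the authors' score (horizontal axis), with exact 95% intervals as error bars and the number of peaks under each bar. Red bars are the classes of the strong peaks described here, in which the percentage ran from 49.95% down to 19.2%; grey bars are weaker peaks.

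The scores of the replicate 2 only peaks ran from 450 to 2585.4, with a median of 603.3 (585.9 to 620.4), while shared peaks reached 3146.7 and had a median of 683.1 (665.2 to 702.1). Because of this difference median width, spacing to the next replicate 2 peak and the ratio of replicate 1 to replicate 2 peaks nearby are also given within score classes. Distance to replicate 1, width ranges, the kind of neighbour, groups, runs and chromosome percentages are given for all classes together. Those comparisons are not matched for score. The 3 members just inside the threshold had scores of 450, 450.54 and 450.8. The 3 peaks without overlap just outside it had 449.85, 449.79 and 449.73, and widths of 1452, 966 and 1405 bases against 1005, 1118 and 1015 bases for the 3 inside. On the overlap side the threshold was as fine: the closest replicate 2 only peak lay 12 bases from a replicate 1 peak, and the smallest overlap of a shared peak was 1 base.

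How far shared peaks stood above the start of the replicate 1 list can be read from their replicate 1 partners. The best-scoring replicate 1 peak under a shared peak had a median score of 315.3 (298.1 to 332.2), with quartiles of 183.9 and 545.5. In the class of replicate 2 scores from 450 to under 600 the median partner score was 263.2 (246.5 to 287.8), and 115 of 545 partners (21.1%, 17.8 to 24.8) scored under 150. In the class of 1500 or more the median was 548.4 (377.1 to 702.5), yet 12 of 105 partners (11.4%, 6.05 to 19.1) still scored under 150. A high score in replicate 2 thus went with replicate 1 scores down to the lowest listed: the lowest partner score in the 4 classes lay between 100.1 and 107.6. Any overlap of 1 base made a partner, so some partners lay almost wholly outside the shared peak. The shared peak with the smallest overlap, 1 base, scored 912.87 and its partner 107.78.

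The strongest replicate 2 only peak lay at chr1:155950777-155953905. It scored 2585.4, was 3129 bases wide, and its nearest replicate 1 peak was 46233 bases away. Only 309 bases separated it from another replicate 2 only peak at chr1:155945026-155950467, which scored 1659.24 and was 5442 bases wide. The replicate 1 peak nearest to both scored 146.41. Coordinates are counted from 1, so each start is 1 higher than the deposited start, and contig names are as in hg19. No annotation or genome of that build was used here, so the genes and sequence at these positions are not given.

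Several of the other top peaks also had a further replicate 2 peak close by. On chromosome 2 the peak at chr2:12309011-12310479 scored 2124.73 and stood 137 bases from a weaker replicate 2 peak (score 324.86), with the nearest replicate 1 peak 338171 bases away. On chromosome 19 the peak at chr19:50990390-50994129 scored 2033.4 and was 209 bases from a replicate 2 only peak with a score of 593.53. The nearest replicate 1 peak was 110137 bases away and scored 113.49. The peak at chr6:3208095-3211144 (score 1800.11) had a weak replicate 2 neighbour 5811 bases away and its nearest replicate 1 peak at 44324 bases. The peaks at chr3:120276930-120279364 (score 1751.23) and chr1:203661429-203662982 (score 1750.62) had replicate 2 neighbours at 8612 and 5480 bases, none of which overlapped a replicate 1 peak.

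Some of the 10 strongest stood more alone. The peak at chr5:10730016-10731828 scored 1902.37, and its next replicate 2 peak was 27852 bases away. The peak at chr19:6585964-6590383 scored 1868.41 over 4420 bases, with 53991 bases to the next replicate 2 peak and 52699 bases to the nearest replicate 1 peak. A further peak of the 10, on chromosome 8, scored 2166.01 and was 1436 bases wide. The remaining one was the widest of all members, at chr17:79354806-79364365, with a score of 1783.91 and 9560 bases. A replicate 1 peak began 838 bases beyond its end and was itself overlapped by a different replicate 2 peak, so this peak is unshared by the rule although both replicates listed peaks within 3 kb of it. The 25 members with a score of 1500 or more were spread over 14 chromosomes, and 9 of them were at least 3000 bases wide. Such widths were not particular to them. The upper quartile of width was 3129 bases in these 25 and 3407 bases in the 105 shared peaks of that class.

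Replicate 2 only peaks were narrower than shared peaks. Their median width was 1488.5 bases (1434 to 1540), with quartiles of 1085.2 and 2086.8 bases, against 1845 bases (1804 to 1885) for shared peaks. The difference of the medians was 356.5 bases (290 to 423, the errors of both medians combined in quadrature). Widths ran from 536 to 9560 bases in the replicate 2 only peaks and from 637 to 7996 bases in the shared peaks, so the groups overlapped over nearly their whole range. Width is not independent of the rule, since a wider peak has more bases with which to meet a replicate 1 peak. Nor was the difference particular to strong peaks. Among replicate 2 peaks with a score under 450, the median was 1093 bases (1078 to 1107) without overlap. It was 1377.5 bases (1354 to 1398) for those shared with replicate 1.

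The replicate 2 only median was the lower one in each score class, with separate intervals in the 2 classes under 900 only. Medians were 1368.5 bases (1304 to 1426) for replicate 2 only and 1725 bases (1650 to 1789) for shared peaks from 450 to under 600. They were 1543 (1474 to 1637) and 1816 bases (1723 to 1885) from 600 to under 900. From 900 to under 1500 they were 1740 (1602 to 1901) and 1959.5 bases (1869 to 2050), where the intervals overlapped. In the class of 1500 or more the replicate 2 only median was 1784 bases (1493 to 3050), an interval that included the shared median of 2481 bases, so no difference was detectable among those 25 peaks.

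The groups differed most at the narrow end and between 2000 and 3000 bases. Widths under 750 bases were found in 45 replicate 2 only peaks (4.08%, 2.99 to 5.43) and 6 shared peaks (0.413%, 0.152 to 0.897). Widths under 1000 bases made up 17.7% (15.5 to 20.1) against 5.23% (4.14 to 6.50). Widths from 2000 to under 3000 bases made up 17.3% (15.1 to 19.7) of the replicate 2 only peaks and 29.7% (27.3 to 32.1) of the shared peaks. At 3000 bases or more the percentages were 10.2% (8.44 to 12.1) and 13.1% (11.4 to 14.9), with overlapping intervals. At 5000 bases or more the percentages were alike within their intervals, with 18 replicate 2 only peaks (1.63%, 0.971 to 2.57) and 22 shared peaks (1.51%, 0.951 to 2.28). The narrowest member, at chr22:25971859-25972394, measured 536 bases and scored 466.01. Next in width to the chromosome 17 peak were chr2:97529901-97537171 with 7271 bases (score 529) and chr16:29817750-29824988 with 7239 bases (score 804.2). Score and width went together only loosely, with a Spearman's rho across peaks of 0.20 in the 1102 replicate 2 only peaks and 0.21 in the 1453 shared peaks. Both quantities come from the same library and peak caller.

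**Figure D2:**
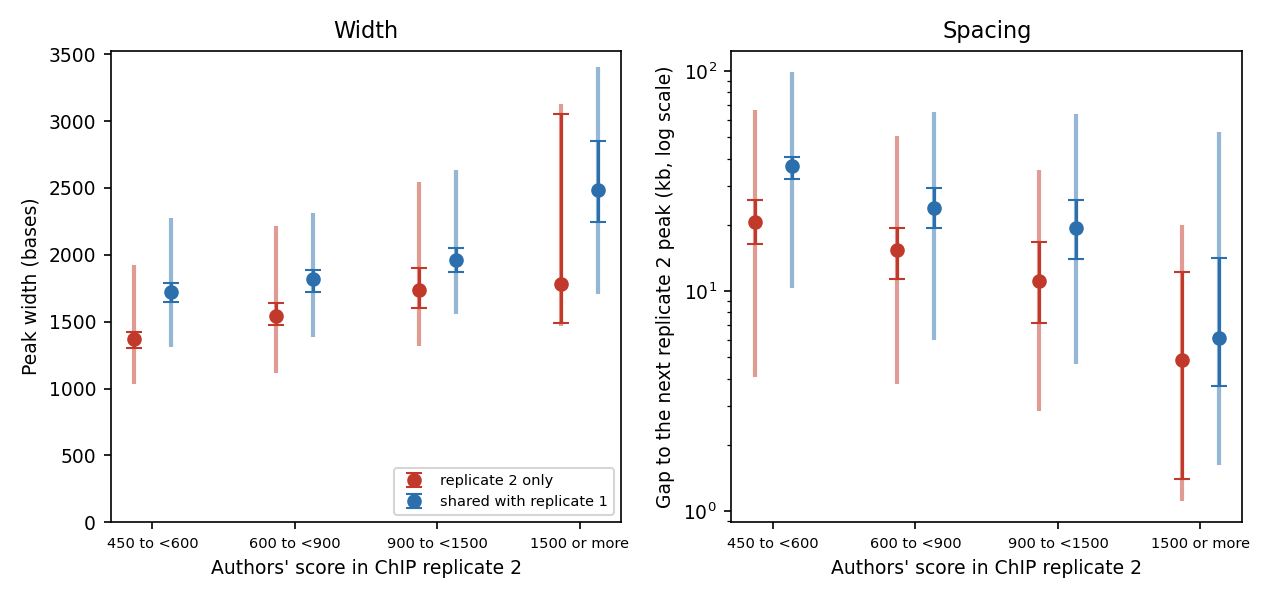
Median peak width in bases (left) and median gap to the next replicate 2 peak of any score in kb on a log scale (right), in 4 classes of the authors' score, for replicate 2 only peaks (red) and shared peaks (blue). Capped bars are 95% intervals of the median and pale lines join the quartiles; both medians are lower in red in every class, and the intervals overlap for width from 900 up and for the gap from 900 up; from 600 to under 900 the gap intervals touch.

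Most replicate 2 only peaks lay at least 10 kb from any replicate 1 peak. The median distance, edge to edge, was 58.7 kb (51.9 to 65.3), with quartiles of 18.5 and 149.7 kb. Of the 1102 peaks, 40 (3.63%) lay under 1 kb from a replicate 1 peak, 158 from 1 to under 10 kb, 517 from 10 to under 100 kb, 371 from 100 to under 1000 kb and 16 beyond. Counting only replicate 1 peaks with a score of 150 or more, the number at which the replicate 2 list begins, gave 1343 such peaks and a median distance of 97.7 kb (89.4 to 108).

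The neighbourhood of replicate 1 peaks was much like that of shared peaks once the overlapping replicate 1 peak itself was left out. The next replicate 1 peak of a shared peak was a median of 52.5 kb (46.5 to 58.2) away, an interval that meets that of the replicate 2 only peaks. No replicate 1 peak lay within 100 kb for 387 replicate 2 only peaks (35.1%, 32.3 to 38.02), and no further one for 486 shared peaks (33.4%, 31.0 to 35.9). Score and distance were only weakly related: across the 1102 peaks Spearman's rho between score and distance was -0.060. Of the nearest replicate 1 peaks, 756 of 1102 (68.6%, 65.8 to 71.3) overlapped some other replicate 2 peak, against 62.2% (61.1 to 63.3) of all replicate 1 peaks. One replicate 1 peak can be nearest to several members.

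**Figure D3:**
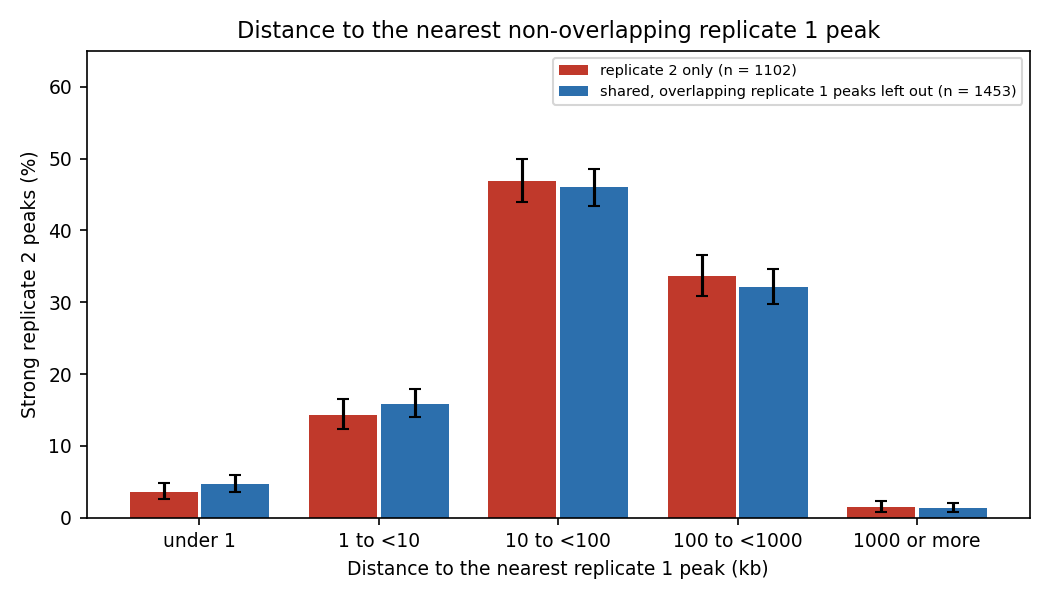
Percentage of strong replicate 2 peaks (vertical axis) in 5 classes of distance to the nearest replicate 1 peak in kb (horizontal axis), for replicate 2 only peaks (red) and, with overlapping replicate 1 peaks left out, shared peaks (blue). Error bars are exact 95% intervals; they overlap in each class, and the class of 10 to under 100 kb holds 46.9% of the red peaks.

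The 40 members closest to replicate 1 lay mostly beside sites that both replicates listed. In 32 of the 40 (80.0%, 64.4 to 91.0) the replicate 1 peak under 1 kb away was overlapped by another replicate 2 peak. That interval includes the 68.6% for the nearest replicate 1 peaks of all 1102 members. The 40 are part of the 1102 and their interval is wide, so whether they differ from the rest cannot be told. Among all replicate 1 peaks the percentage was 62.2%. The closest, at chr5:9453758-9454547 (score 488.86), lay 12 bases before a replicate 1 peak that a second replicate 2 peak, chr5:9455091-9456892 with a score of 814.84, overlapped. The replicate 1 peak beside the remaining 8 was overlapped by no replicate 2 peak. Asking that no replicate 1 peak lie within 1 kb left 1062 members.

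At the other end, the member farthest from replicate 1 was chr13:91999090-92001710. It scored 852.3 over 2621 bases, and the nearest peak of either list was over 3 megabases away, 3246.2 kb for replicate 1 and 3246.1 kb for replicate 2. Others of the 16 members at least 1000 kb from replicate 1 had a replicate 2 peak close by. The second, chr2:17994545-17995591 (score 640.9), was 2105.1 kb from replicate 1 and 16.0 kb from another replicate 2 peak. The peak at chr12:98896851-98898219 (score 619.3) was 1762 kb from replicate 1 and 1.43 kb from another replicate 2 peak. The peak at chr3:79066640-79069261 was isolated in both lists, with a score of 1145.3, 1750 kb to replicate 1 and 987.1 kb to the next replicate 2 peak.

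Replicate 2 only peaks more often had another replicate 2 peak nearby than shared peaks did. The median gap to the next replicate 2 peak of any score was 16.5 kb (13.4 to 19.3) against 27.2 kb (23.4 to 29.9). Replicate 2 peaks with a score under 450 had the same order. Their median gap was 28.7 kb (27.6 to 30.2) without overlap and 39.4 kb (37.1 to 42.2) where shared. Among the strong peaks, counts within a fixed distance also differed. A neighbour within 10 kb was found for 454 of 1102 replicate 2 only peaks (41.2%, 38.3 to 44.2) and for 486 of 1453 shared peaks (33.4%, 31.0 to 35.9). The difference was 7.75 percentage points (3.91 to 11.6). It was widest in the lowest score class, with 38.1% (34.0 to 42.3) against 24.4% (20.9 to 28.2) from 450 to under 600. The percentages were 41.5% (36.5 to 46.5) and 34.1% (29.9 to 38.6) from 600 to under 900, and 47.6% (39.3 to 56.0) and 40.2% (34.9 to 45.8) from 900 to under 1500. In the latter 2 classes the intervals overlapped, as they did at 1500 or more, with 68.0% (46.5 to 85.1) and 56.2% (46.2 to 65.9).

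Over all score classes together, most of this difference came with weaker neighbours. When only neighbours with a score of at least 450 counted, 16.2% (14.0 to 18.5) of the replicate 2 only peaks and 14.9% (13.1 to 16.8) of the shared peaks had one within 10 kb, a difference of 1.29 percentage points (-1.61 to 4.18). In the class from 450 to under 600 alone, strong neighbours within 10 kb were also more frequent around replicate 2 only peaks, at 13.4% (10.7 to 16.6) against 7.89% (5.77 to 10.5). In the other classes the intervals overlapped and the order varied, with 14.8% against 15.2% from 600 to under 900, 28.6% against 21.95% from 900 to under 1500 and 24% against 27.6% at 1500 or more. Of the 454 nearest neighbours of replicate 2 only peaks, 265 (58.4%, 53.7 to 63.0) were weaker peaks without replicate 1 overlap, against 209 of 486 (43.0%, 38.5 to 47.5) for shared peaks. Such weaker peaks were 6989 of all 12798 replicate 2 peaks, so they were common everywhere in the list. Peaks without overlap at any score made up 342 of 454 neighbours (75.3%, 71.1 to 79.2) around replicate 2 only peaks and 272 of 486 (56.0%, 51.4 to 60.4) around shared peaks. In all replicate 2 peaks the percentage was 63.2%. Within 1 kb the groups did not differ beyond their intervals: 114 replicate 2 only peaks (10.3%, 8.61 to 12.3) and 155 shared peaks (10.7%, 9.13 to 12.4) had another replicate 2 peak that close. Of those 114 close partners of replicate 2 only peaks, 32 (28.1%, 20.1 to 37.3) were themselves shared. In the whole replicate 2 list, 63.2% of peaks were not shared and the rest were. The partners of the 155 shared peaks were not counted in this way.

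Counted over 100 kb on either side, a replicate 2 only peak had a mean of 3.24 other replicate 2 peaks and 1.40 replicate 1 peaks. A shared peak had 2.87 other replicate 2 peaks and 1.57 further replicate 1 peaks. There were thus 0.433 replicate 1 peaks for each replicate 2 peak around the former and 0.548 around the latter. In the 4 score classes the ratio lay between 0.424 and 0.443 around replicate 2 only peaks and between 0.504 and 0.587 around shared peaks.

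Strong peaks close together were also more often of the same kind. Where the nearest other strong peak was under 10 kb away, it was replicate 2 only for 98 of 178 replicate 2 only peaks (55.1%, 47.4 to 62.5) and for 76 of 216 shared peaks (35.2%, 28.8 to 42.0). From 10 to under 50 kb the percentages were 52.0% (44.9 to 59.0) and 40.6% (34.4 to 47.0), with overlapping intervals. From 50 to under 100 kb they were 54.0% (45.7 to 62.2) and 46.8% (38.9 to 54.9), and from 100 to under 500 kb 42.2% (37.0 to 47.5) and 44.2% (39.7 to 48.8), again with overlapping intervals. At 500 kb or more the order was the opposite, with 34.7% (28.4 to 41.4) around replicate 2 only peaks, an interval below the 43.1% of all strong peaks, and 41.0% (35.8 to 46.4) around shared peaks. Mutual neighbours count from both sides, so the intervals are too narrow. At the shortest distances a single wide replicate 1 peak can also make both neighbours shared.

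**Figure D4:**
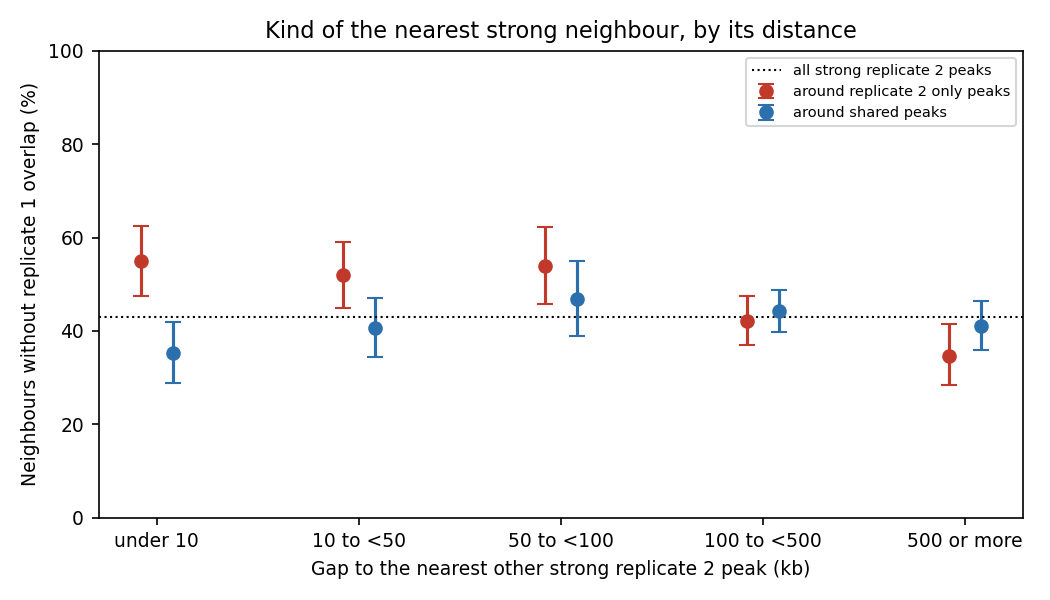
Percentage of nearest strong neighbours that overlap no replicate 1 peak (vertical axis), by the gap to that neighbour in kb (horizontal axis), around replicate 2 only peaks (red) and shared peaks (blue), with exact 95% intervals; the dotted line is the 43.1% of all strong replicate 2 peaks. Red lies above blue under 10 kb, at 55.1% and 35.2%, and the intervals overlap from 10 kb on.

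Large groups of replicate 2 only peaks were few. Joined where gaps were at most 100 kb, with other peaks ignored, the 1102 peaks formed 905 groups, of which 752 were single peaks, 120 were pairs and 33 held 3 or more. Single peaks were 68.2% (65.4 to 71.0) of the replicate 2 only peaks and 69.2% (66.7 to 71.5) of the shared peaks. The longest group of replicate 2 only peaks held 6, and the longest of shared peaks held 8.

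That group of 6 lay on chromosome 6 between chr6:11202852-11204204 and chr6:11392624-11393751. Its members scored 510.48, 930.49, 1449.13, 858.37, 521.26 and 970.68 in order along the chromosome. The replicate 1 list was not empty there: the peaks nearest to the first 3 members scored 104.31 and 109.34, close to the lowest listed, and lay between 2046 and 9324 bases away. A shared replicate 2 peak, chr6:11232250-11234182 with a score of 1214.27, sat inside the group, and its replicate 1 counterpart scored 247.62.

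Per megabase, the fullest window was on chromosome 3 from 185000001 to 186000000. It held 11 replicate 2 only peaks among 16 strong ones, with 30 replicate 2 and 17 replicate 1 peaks in all. The 11 peaks scored between 457.1 and 935.49. In order of position, 6 of them came first, then all 5 shared strong peaks, between chr3:185448918-185450671 and chr3:185787201-185788822, and then the other 5. This separation holds for strong peaks only. A weaker shared peak, chr3:185215841-185217324, lay among the first 6. A weaker peak without overlap, chr3:185678017-185679338, lay among the shared strong peaks. On chromosome 12, the window from 56000001 to 57000000 held 8 replicate 2 only peaks of 13 strong ones. One of them, chr12:56364183-56365692 with a score of 1120.16, lay beside a shared peak of score 1408.1 that ended at 56361435. The window on chromosome 1 from 156000001 to 157000000 held 7 of 13, interspersed with shared peaks. Of 708 windows of 1 megabase with a replicate 2 only peak, 460 held a single one and 12 held 5 or more, and 56 windows with 60 members in all (5.45%) contained no replicate 1 peak.

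**Figure D5:**
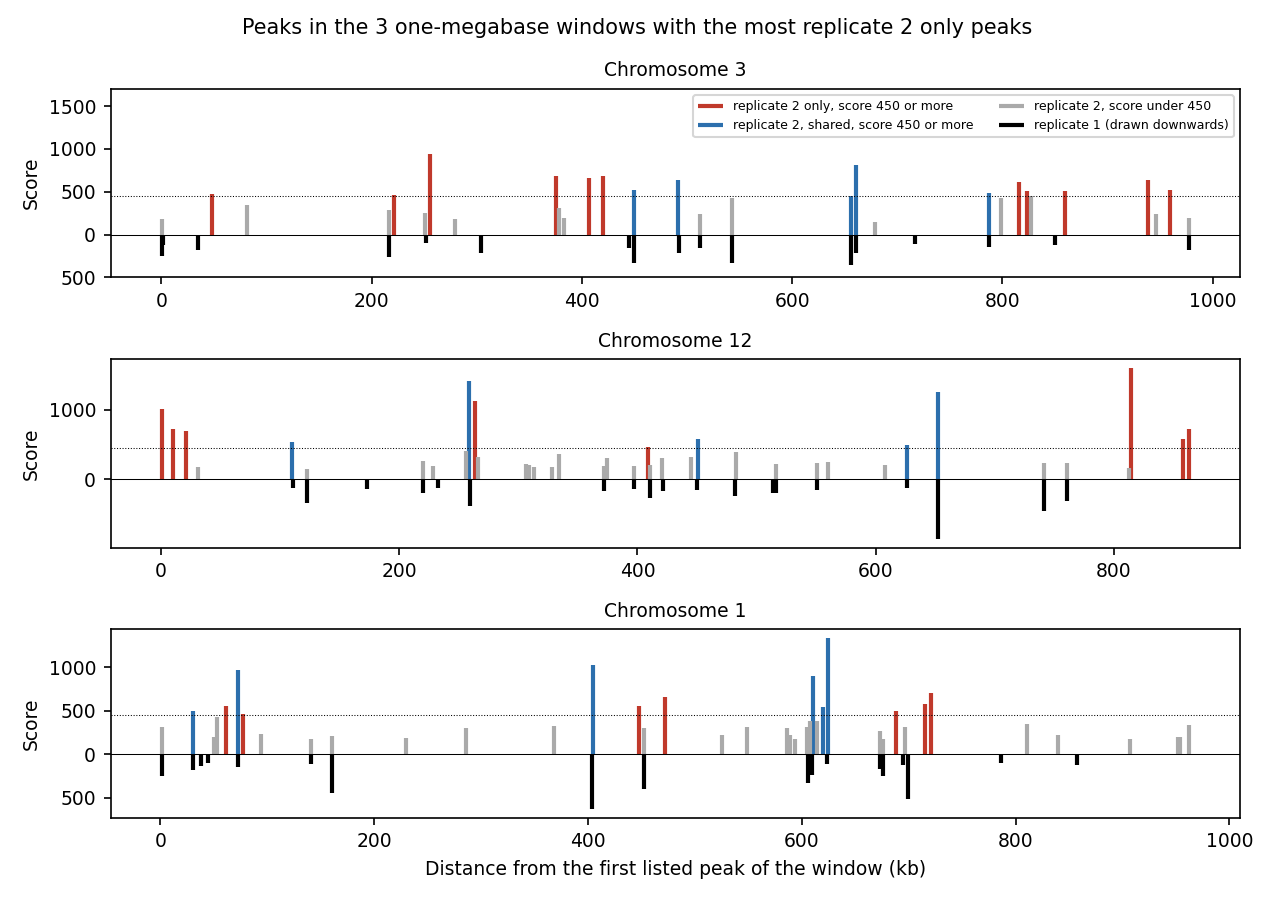
Scores of the listed peaks (vertical axis) against distance in kb from the first listed peak (horizontal axis) in the windows on chromosomes 3, 12 and 1 with the most replicate 2 only peaks. Red lines are replicate 2 only peaks, blue lines strong shared peaks, grey lines replicate 2 peaks with a score under 450, black lines drawn downwards replicate 1 peaks, and the dotted line is a score of 450; on chromosome 3 the 5 blue lines lie between 6 red lines and 5 red lines.

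In order along the chromosomes, the strong peaks formed 608 uninterrupted runs of replicate 2 only peaks, of which 350 were of a single peak and 23 of 5 or more. The longest run was 11 peaks on chromosome 13 from 77600213 to 111523316, across 33923.1 kb with 32 replicate 1 peaks inside. A denser run of 7 lay at chr2:37616653-38452587, across 835.9 kb with 5 replicate 1 peaks inside, and another of 7 at chr1:94080550-95402083, across 1321.5 kb with 7 replicate 1 peaks inside. Shared peaks formed 75 runs of 5 or more, and their longest was 14. Replicate 2 only peaks were 1102 of the 2555 strong peaks (43.1%), so the counts of long runs are not matched for group size. Whether the runs of either kind differ from a random order was not tested.

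Replicate 2 only peaks were found on all 23 chromosomes examined. Chromosome 1 held the most, 161 of 384 strong peaks (41.9%, 36.9 to 47.0). The percentage lay above the 43.1% of all strong peaks, interval included, on chromosome 22, with 34 of 58 (58.6%, 44.9 to 71.4). It lay below on chromosome 11, with 21 of 74 (28.4%, 18.5 to 40.1), and on chromosome 17, with 56 of 164 (34.1%, 26.9 to 42.0). The intervals of the other 20 chromosomes included 43.1%. With 23 intervals at 95%, about 1 is expected to miss the common value through counting alone. Chromosome 22 had the highest number of replicate 2 peaks per replicate 1 peak, 2.27. The X chromosome had the lowest, 1.07, and 5 of its 20 strong peaks were replicate 2 only (25%, 8.66 to 49.1). Chromosomes 11 and 17, with low percentages, had 1.52 and 1.60. Chromosome 14 had 1.29, with 44.1% of its strong peaks replicate 2 only. Whether this number and the percentage were related was not tested. How many copies of each chromosome these cells carry was not examined here.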

How the data were processed

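Peak lists of 2 ChIP replicates of eGFP-tagged IRF4 in 501Mel cells were used as the authors deposited them, 1 list per replicate. Each row gives a contig, start, end, a name beginning with MACS, and a score, which is the authors' deposited value. The submitters' processing notes name Bowtie2 and hg19, without saying for which files. The peak caller's version, the use of the input and the definition of the score are not given in the sources used here. The p tags in the deposited lists' names, 10 and 15, fit their lowest scores of 100 and 150, which would fit a different threshold in each list; no source states it. ChIP libraries were sequenced as paired ends, per the labels' protocols.

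Peaks on chromosomes 1 to 22 and X were kept, which left out 34 peaks of replicate 1 and 33 of replicate 2. Overlap meant at least 1 base. Distances are bases between peak edges. Replicate numbers came from the sample titles. Score classes began at 450, 600, 900 and 1500. Computation used Python 3.11.15, pandas 2.3.3 and SciPy 1.17.1. The interval functions were tested on simulated peaks, and the overlap count was checked with bedtools 2.31.1. The regions named are the 10 best-scoring members, those at the thresholds, the widest, narrowest, nearest and farthest, the longest group and the 3 fullest windows. Further wide and far members and the longest runs were named after their values were seen. The members, classes and alternatives were chosen with earlier results of these data known. Genes, motifs and expression at the peaks were not analysed here, since no genome or annotation of the lists' build was used. Alternatives are described at the end.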

Additional observations from a re-analysis of the deposited data

How the results depend on the processing

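The rule gave 1102 peaks, 43.1% of the strong replicate 2 peaks. A score of at least 600 gave 558 peaks (38.1%) by construction, with a median width of 1602.5 bases. The percentage was 48.2% when a reciprocal overlap of 50% was asked, 50.2% when centres within 500 bases were asked and 52.6% when replicate 1 peaks had to score at least 150, which also moved the median distance from 58.7 to 97.7 kb. The percentage of members with a replicate 2 neighbour, 41.2% within 10 kb, was 30.7% within 5 kb and 73.8% within 50 kb. It was 16.2% with strong neighbours only, where the difference from shared peaks fell from 7.75 to 1.29 percentage points. It was 35.2% after replicate 2 peaks within 1 kb were merged, an alternative for width and spacing chosen after seeing the data. The other 23 of 35 values stayed within the interval of the main value or within 1.5 times the main count. Among these 35 values the direction of the width and spacing differences did not reverse. With strong neighbours only, the interval of the spacing difference (-1.61 to 4.18 percentage points) held values of either sign. Outside the 35 values, the order was the opposite within 1 kb, with 10.3% of members against 10.7% of shared peaks. For strong neighbours it was the opposite in the score classes from 600 and from 1500, but not in those from 450 and from 900. Where the order was the opposite, the intervals of the groups overlapped. Alternatives on gene position, motifs and expression were not run. Leaving out a replicate gives no value, since the rule needs both lists. No paired analysis was possible because the results come from no test between groups. The lists give no depth, so the part of depth in the missing overlap was not tested.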
